A study of Mus musculus with 6 samples.

Results

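Interferon-induced effector genes are the genes whose products carry out the antiviral state that interferons set up in a cell. A fixed list of 38 such mouse genes was looked up by symbol in the deposited counts, and all 38 were found among 31053 gene names. The list was drawn up from earlier results of these same libraries, in which Bst2 and Trim25 were higher in KO and a group of cells led by Oasl2 was found in DeltaSP, so the differences between genotypes given for these genes are a description and not a test. The libraries came from embryoid bodies (floating aggregates of differentiating cells) at day 6 of a motor neuron protocol. They were grown from mouse embryonic stem cells that carry HB9::GFP, a fluorescent motor neuron reporter. KO is the genotype written lncMN2-/- in the labels, DeltaSP is lncMN2_SP-/-, and WT is wild type. Both edits were made with CRISPR/Cas9 at the lncMN2 locus in the stem cells, and the reporter is shared by the edited and WT lines. There were 2 libraries per genotype, each from 1 clone, so clone, culture and library preparation cannot be told apart within a library, and p-values measure the spread between libraries. Values are UMIs (unique molecular identifiers, each standing for 1 captured RNA molecule), summed per library over its kept cells and given as CPM, UMI counts relative to the library total and scaled by TMM, a correction for differences in RNA composition.

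Type I interferons bind the receptor Ifnar1 and Ifnar2, which acts through the kinases Jak1 and Tyk2. The signal ends at the interferon-stimulated response element (ISRE) in promoters, while that of interferon gamma ends at the gamma-activated site (GAS). The induced genes include RNA sensors, nucleases, GTPases and ubiquitin-like modifiers that limit viral replication at many steps, and several also act in feedback on the pathway. Embryonic stem cells are known for a weak interferon response that strengthens as they differentiate.

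Library totals ran from 24191242 to 49061693 UMIs. Kept cells numbered 2129 and 2100 in KO, 2283 and 3602 in DeltaSP, and 4499 and 1612 in WT. Median depth was 4157 UMIs per kept cell in WT 1 and between 11898.5 and 15112 in the other 5 libraries. Pairs of libraries shared between 3 and 11 barcodes. The edited libraries held fewer neuronal RNAs: the summed CPM of 15 pan-neuronal markers was 6585 and 5408 in KO, 8514 and 6587 in DeltaSP, and 9460 and 11390 in WT.

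Promoter sequence was not used to choose the genes. RefSeq promoters on GRCm38.p6 (250 bases before to 50 after the start) were matched by symbol for 31 of the 38 genes. An ISRE, searched as GAAANNGAAA or, on the other strand, TTTCNNTTTC, was present in the promoters of 14 of these 31 genes (45.2%), against 1079 of all 27025 genes in the table (3.99%). A GAS, searched as the palindrome TTCNNNGAA, was present in 8 of 31 (25.8%), against 2582 of all genes (9.55%). The 2 motifs can overlap, and repeated ISRE matches in 1 promoter overlapped each other. To show the element and its spacing, the promoters of the 4 genes with the highest mean level among those holding an ISRE follow, read along the gene's own strand, with every base of an ISRE match in capitals. Matches began at -130 and -124 in Bst2 (chr8:71537423-71537722, minus strand), at -78, -72 and -66 in Isg15 (chr4:156200769-156201068, minus strand), 18 bases after the first transcribed base in Eif2ak2 (chr17:78882523-78882822, minus strand), and at -30 and -24 in Irgm1 (chr11:48871371-48871670, minus strand), counted from the first transcribed base.
Bst2: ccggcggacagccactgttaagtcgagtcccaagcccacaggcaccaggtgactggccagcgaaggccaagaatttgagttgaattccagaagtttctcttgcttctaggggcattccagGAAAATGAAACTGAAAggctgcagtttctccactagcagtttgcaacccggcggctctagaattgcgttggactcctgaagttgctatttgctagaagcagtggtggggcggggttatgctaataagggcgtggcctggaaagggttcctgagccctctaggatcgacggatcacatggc
Isg15: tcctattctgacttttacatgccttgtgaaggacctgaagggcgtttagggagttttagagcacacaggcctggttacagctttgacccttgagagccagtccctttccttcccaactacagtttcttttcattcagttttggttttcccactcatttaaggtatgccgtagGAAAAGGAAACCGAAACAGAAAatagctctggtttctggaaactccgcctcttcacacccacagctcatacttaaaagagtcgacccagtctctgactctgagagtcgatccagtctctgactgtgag
Eif2ak2: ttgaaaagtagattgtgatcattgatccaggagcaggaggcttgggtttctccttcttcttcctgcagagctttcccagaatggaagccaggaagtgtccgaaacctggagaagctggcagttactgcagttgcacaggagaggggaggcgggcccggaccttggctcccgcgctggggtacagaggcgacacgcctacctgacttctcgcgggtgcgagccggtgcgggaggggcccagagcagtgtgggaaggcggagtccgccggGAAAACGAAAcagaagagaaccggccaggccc
Irgm1: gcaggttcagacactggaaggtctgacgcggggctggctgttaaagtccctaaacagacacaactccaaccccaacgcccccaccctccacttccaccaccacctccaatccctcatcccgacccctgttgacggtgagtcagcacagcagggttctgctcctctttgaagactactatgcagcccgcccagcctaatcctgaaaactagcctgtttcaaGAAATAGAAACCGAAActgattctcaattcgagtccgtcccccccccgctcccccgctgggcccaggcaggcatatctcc
Isg15 held 3 matches in steps of 6 bases, Bst2 and Irgm1 held 2 matches in the same step, and Eif2ak2 held 1 match. Trim25 (chr11:88999153-88999452, plus strand) and Rnf213 (chr11:119389849-119390148, plus strand) had the highest mean levels among the genes without a match and are printed for contrast, all in lower case.
Trim25: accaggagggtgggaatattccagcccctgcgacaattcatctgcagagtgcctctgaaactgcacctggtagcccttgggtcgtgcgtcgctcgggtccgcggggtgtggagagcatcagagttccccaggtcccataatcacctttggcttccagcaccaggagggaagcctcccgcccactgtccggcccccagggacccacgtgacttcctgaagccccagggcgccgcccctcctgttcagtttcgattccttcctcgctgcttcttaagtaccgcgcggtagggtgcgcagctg
Rnf213: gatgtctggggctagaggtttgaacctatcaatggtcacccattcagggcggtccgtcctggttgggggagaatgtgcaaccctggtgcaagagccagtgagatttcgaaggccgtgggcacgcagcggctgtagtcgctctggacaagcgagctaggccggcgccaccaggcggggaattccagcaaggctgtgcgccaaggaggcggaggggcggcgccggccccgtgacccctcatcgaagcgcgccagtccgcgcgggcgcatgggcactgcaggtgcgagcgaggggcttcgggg
No match says only that these letters are not in this window. The 14 genes with an ISRE were Isg15, Ifit1, Ifit3, Ifit3b, Oas1a, Eif2ak2, Ddx60, Irgm1, Irgm2, Igtp, Gbp7, Rsad2, Bst2 and Trim30a.

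**Figure D1:**
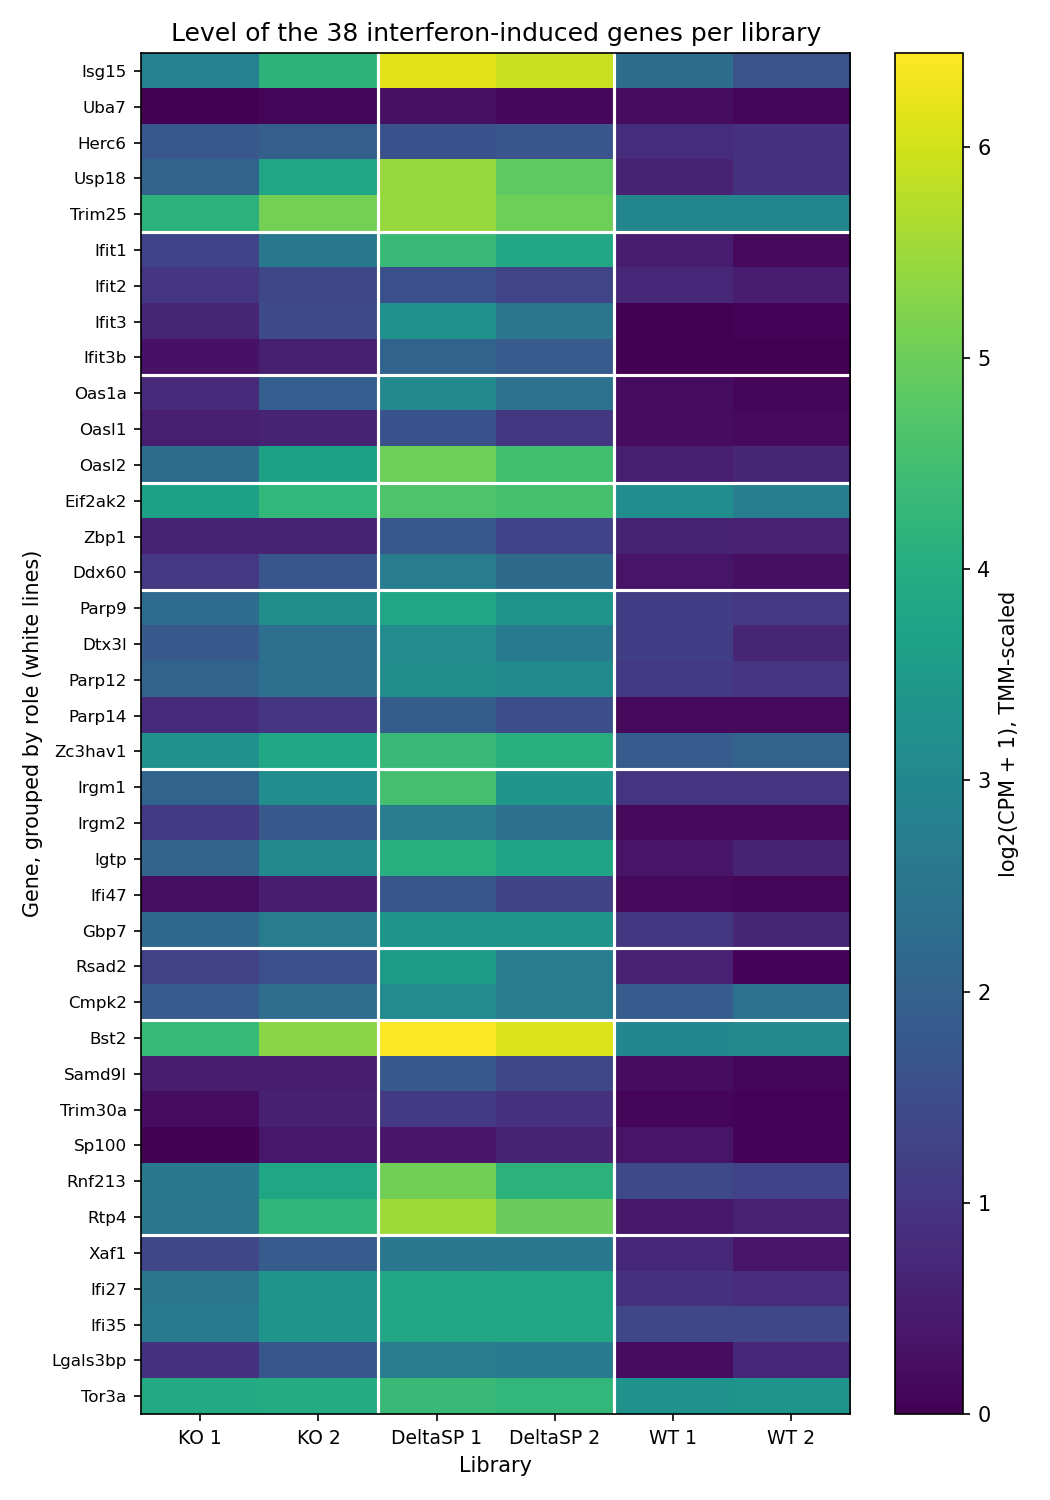
Level of each of the 38 genes (one line each, grouped by role) in the 6 libraries, as log2(CPM + 1) with TMM scaling, from dark (0) to yellow (highest). The DeltaSP columns are the brightest for most genes, KO 2 is brighter than KO 1, and the WT columns are dark except for genes such as Trim25, Eif2ak2, Bst2 and Tor3a.

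The ISG15 system attaches a ubiquitin-like protein to other proteins during infection. Isg15, the modifier itself, stood at 6.07 and 17.0 CPM in KO 1 and KO 2, at 70.0 and 59.1 CPM in DeltaSP 1 and DeltaSP 2, and at 3.85 and 2.15 CPM in WT 1 and WT 2. The 3 genotypes did not overlap, with DeltaSP far above KO. The log2 fold change of Isg15 was 1.98 ± 0.50 in KO and 4.46 ± 0.52 in DeltaSP against WT (SE of the fit here and below). Usp18, which removes Isg15 from proteins and damps the receptor, was at 3.24 and 12.7 CPM in KO, at 42.6 and 27.8 CPM in DeltaSP, and at 0.566 and 0.920 CPM in WT. Its levels did not overlap between genotypes either, and its log2 fold changes were 3.38 ± 0.71 in KO and 5.51 ± 0.72 in DeltaSP against WT. Trim25, a ubiquitin ligase that activates the RNA sensor Ddx58 (RIG-I), reached 16.7 and 33.3 CPM in KO, 42.4 and 31.6 CPM in DeltaSP, and 6.80 and 6.75 CPM in WT. KO 2 lay between the 2 DeltaSP libraries for Trim25, so KO and DeltaSP overlapped while both stood above WT, by log2 fold changes of 1.89 ± 0.33 in KO and 2.45 ± 0.33 in DeltaSP. Herc6, the mouse ligase for Isg15, stayed below 5 CPM in each library, and it was the single gene of the 38 whose KO libraries, at 2.33 and 2.84 CPM, both exceeded the DeltaSP libraries, at 2.08 and 2.27 CPM. Uba7, the activating enzyme of this system, was at or below 0.214 CPM in each library, was too low to be tested, and shares 21.3% of its 90-base windows near the 3' end with Gm20661.

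The IFIT proteins bind foreign RNA and block its translation. Ifit1, which recognises RNA caps lacking a methyl mark, was at 1.46 and 5.06 CPM in KO, at 19.1 and 13.2 CPM in DeltaSP, and at 0.397 and 0.115 CPM in WT. Its genotypes were fully separate, with log2 fold changes of 3.79 ± 0.80 in KO and 6.09 ± 0.77 in DeltaSP against WT. Ifit3, which stabilises IFIT complexes, was at 0.591 and 1.85 CPM in KO, at 8.57 and 4.78 CPM in DeltaSP, and in WT at 0 CPM and 0.0383 CPM, from 1 UMI in all. Against that single WT UMI the pooled ratio was 54.6 in KO (95% exact interval 9.53 to 2180) and 283 in DeltaSP (50.7 to 11200). Ifit3b, its near copy in the same cluster on chromosome 19, had no UMI in WT, and counting 3 UMIs in each WT library as the floor it was at least 2.57-fold higher in KO and at least 20.5-fold higher in DeltaSP. Of the last 600 transcript bases of Ifit3, 5.28% of 90-base windows also occur in Ifit3b, so a small part of their reads cannot be assigned. The fourth gene, Ifit2, differed less, with log2 fold changes of 1.31 ± 0.45 in KO and 1.70 ± 0.44 in DeltaSP against WT.

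The OAS family makes an RNA messenger that switches on RNase L, or, in the OAS-like genes, modifies RNA sensing. Oasl2 was at 3.83 and 11.7 CPM in KO, at 31.7 and 21.7 CPM in DeltaSP, and at 0.453 and 0.614 CPM in WT. All 3 genotypes were apart for Oasl2, with log2 fold changes against WT of 3.83 ± 0.63 in KO and 5.60 ± 0.63 in DeltaSP. Oas1a was at 0.747 and 2.78 CPM in KO, at 7.20 and 4.32 CPM in DeltaSP, and at 0.170 and 0.0767 CPM in WT. It shares 53.6% of its 90-base windows near the 3' end with Oas1g, so its values are uncertain. Oasl1, a translational inhibitor of Irf7, reached at most 2.08 CPM.

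Among genes that sense nucleic acid and then act, Eif2ak2 (PKR), the kinase that halts translation on double-stranded RNA, was well above 0 in WT. It was at 11.8 and 18.4 CPM in KO, at 24.4 and 22.5 CPM in DeltaSP, and at 7.87 and 5.79 CPM in WT. The genotypes did not overlap, but the span was narrow, with log2 fold changes against WT of 1.15 ± 0.26 in KO and 1.79 ± 0.26 in DeltaSP. Ddx60, a helicase linked to RIG-I signalling, was at 1.09 and 2.30 CPM in KO, at 5.66 and 3.64 CPM in DeltaSP, and at 0.283 and 0.192 CPM in WT, again in 3 separate groups. Zbp1, a sensor of Z-form nucleic acid, was at 0.560 and 0.568 CPM in KO, at 2.40 and 1.44 CPM in DeltaSP, and at 0.566 and 0.499 CPM in WT, so that KO and WT overlapped and DeltaSP alone stood above.

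The PARP group adds or binds ADP-ribose. Parp9 was at 3.80 and 8.04 CPM in KO, at 12.9 and 9.10 CPM in DeltaSP, and at 1.30 and 1.11 CPM in WT. Dtx3l, the ubiquitin ligase that forms a complex with Parp9 and is its overlapping, oppositely oriented neighbour on chromosome 16, was at 2.46 and 4.09 CPM in KO, at 7.58 and 5.35 CPM in DeltaSP, and at 1.30 and 0.614 CPM in WT. Both genes of this pair kept the 3 genotypes apart in the same order. Parp12, which lies in the Golgi and restrains translation of viral RNA, was at 3.21 and 4.09 CPM in KO, at 8.17 and 7.38 CPM in DeltaSP, and at 1.13 and 0.997 CPM in WT. Zc3hav1 (ZAP), which binds CG-rich viral RNA for decay, was at 8.62 and 13.2 CPM in KO, at 19.6 and 15.8 CPM in DeltaSP, and at 2.66 and 3.14 CPM in WT. For Zc3hav1 the log2 fold changes were 1.90 ± 0.27 in KO and 2.60 ± 0.27 in DeltaSP, and for Parp12 they were 1.78 ± 0.27 in KO and 2.87 ± 0.27 in DeltaSP. The remaining gene of the group, Parp14, stayed below 5 CPM.

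Immunity-related GTPases and guanylate-binding proteins coat and break the vacuoles of intracellular pathogens and are classical targets of interferon gamma. Igtp was at 3.27 and 7.13 CPM in KO, at 15.3 and 12.7 CPM in DeltaSP, and at 0.283 and 0.537 CPM in WT. Irgm2 was at 1.15 and 2.47 CPM in KO, at 5.68 and 4.15 CPM in DeltaSP, and at 0.113 and 0.115 CPM in WT. The annotated spans of Igtp and Irgm2 overlap on the plus strand of chromosome 11, so their counts may not be fully separate. Irgm1, a regulator of the other GTPases, was at 3.24 and 7.93 CPM in KO, at 22.2 and 9.54 CPM in DeltaSP, and at 0.963 and 0.997 CPM in WT, with DeltaSP 1 well above DeltaSP 2. Gbp7 was at 3.49 and 5.60 CPM in KO, at 9.47 and 9.10 CPM in DeltaSP, and at 1.08 and 0.614 CPM in WT. For each of these 4 genes the genotypes were separate, and the log2 fold changes against WT ran from 2.46 ± 0.37 (Gbp7) to 3.95 ± 0.61 (Irgm2) in KO and from 3.49 ± 0.37 to 5.38 ± 0.58, for the same genes, in DeltaSP. Ifi47, the last of the group, reached at most 2.32 CPM.

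Rsad2 (viperin), which makes a chain-terminating nucleotide, and Cmpk2, a nucleotide kinase, are close neighbours on chromosome 12. Rsad2 was at 1.37 and 1.96 CPM in KO, at 10.4 and 5.63 CPM in DeltaSP, and at 0.510 and 0.0383 CPM in WT. Cmpk2 was at 2.65 and 3.98 CPM in KO, at 7.69 and 5.61 CPM in DeltaSP, and at 2.66 and 4.26 CPM in WT. KO and WT overlapped for Cmpk2, with a log2 fold change of -0.07 ± 0.34, whereas DeltaSP was apart from both for each gene. Without WT 2 this value for Cmpk2 was 0.33 and without KO 1 it was 0.20, so its sign rested on single libraries.

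Restriction factors act on single steps of the viral cycle. Bst2 (tetherin), which holds budding virions on the cell surface, was at 18.8 and 38.2 CPM in KO, at 86.0 and 68.3 CPM in DeltaSP, and at 7.08 and 7.17 CPM in WT. The 3 genotypes were far apart for Bst2, by log2 fold changes against WT of 2.0 ± 0.33 in KO and 3.44 ± 0.34 in DeltaSP. Rtp4, a chaperone that also binds flavivirus replication complexes, was at 4.92 and 17.8 CPM in KO, at 44.7 and 30.6 CPM in DeltaSP, and at 0.340 and 0.499 CPM in WT. Rnf213, a very large ubiquitin ligase, was at 5.10 and 13.2 CPM in KO, at 32.9 and 16.7 CPM in DeltaSP, and at 1.70 and 1.46 CPM in WT. Rtp4 had log2 fold changes of 4.71 ± 0.74 in KO and 6.43 ± 0.74 in DeltaSP, and Rnf213 had 2.54 ± 0.54 in KO and 3.98 ± 0.55 in DeltaSP. The other 3 genes of this group, Samd9l, Trim30a and Sp100, stayed below 5 CPM.

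In the last group, Ifi27, a mitochondrial and nuclear protein, was at 4.86 and 9.26 CPM in KO, at 13.5 and 13.1 CPM in DeltaSP, and at 0.906 and 0.767 CPM in WT. Ifi35, a partner of Nmi, was at 5.42 and 9.06 CPM in KO, at 13.2 and 13.6 CPM in DeltaSP, and at 1.59 and 1.57 CPM in WT. Xaf1, which counters the apoptosis inhibitor Xiap, was at 1.59 and 2.64 CPM in KO, at 5.02 and 5.13 CPM in DeltaSP, and at 0.680 and 0.307 CPM in WT. All 3 kept the genotypes apart. Lgals3bp, a secreted glycoprotein, was at 0.934 and 2.30 CPM in KO, at 5.58 and 5.28 CPM in DeltaSP, and at 0.170 and 0.652 CPM in WT. Tor3a, an ATPase of the endoplasmic reticulum, was at 14.4 and 14.7 CPM in KO, at 19.2 and 18.4 CPM in DeltaSP, and at 8.84 and 9.13 CPM in WT. Its libraries lay close together within each genotype, and its log2 fold changes were small, at 0.70 ± 0.15 in KO and 1.06 ± 0.15 in DeltaSP. The 11 genes that stayed below 5 CPM in each library (Uba7, Herc6, Ifit2, Ifit3b, Oasl1, Zbp1, Parp14, Ifi47, Samd9l, Trim30a and Sp100) ranged from 0 to 2.84 CPM in KO, from 0.109 to 3.23 CPM in DeltaSP and from 0 to 0.882 CPM in WT.

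Across the list, the summed level of the 38 genes was 141.0 and 279.5 CPM in KO, 611.4 and 459.5 CPM in DeltaSP, and 56.8 and 53.0 CPM in WT. Of the 38 genes, 37 were tested and Uba7 was not. In KO against WT, edgeR's quasi-likelihood test at an adjusted p of 0.05 called 25 of the 37 higher, where 2.81% of all 14900 tested genes were called higher. Both KO libraries were above both WT libraries for 34 of the 38 genes (30.1% of all tested genes). In DeltaSP against WT the test also called 25 higher, where 0.289% of all tested genes were, and both DeltaSP libraries were above both WT libraries for 37 of 38 (24.9% of all tested genes). Called in both were 22 genes; these comparisons share the WT libraries, and the genes were picked on them, so nothing is read from the counts. The median log2 fold change against WT was 2.20 in KO and 3.98 in DeltaSP, where the medians of all tested genes were 0.00119 in KO and -0.0125 in DeltaSP, and with Ifit3b at its bound the list medians were 2.16 in KO and 3.98 in DeltaSP. By role, calls in KO and in DeltaSP numbered 3 and 3 of 4 tested ISG15 system genes, 3 and 3 of 4 IFIT genes, 2 and 1 of 3 OAS genes, 2 and 2 of 3 sensing effectors, 4 and 4 of 5 in the PARP group and 4 and 4 of 5 GTPases. They numbered 0 and 0 of 2 for Rsad2 and Cmpk2, 3 and 4 of 6 restriction factors, and 4 and 4 of 5 in the last group. The calls rested on single libraries: KO against WT gave 0 calls without WT 1 or without KO 2, 13 without KO 1 and 17 without any one of the other 3. DeltaSP against WT gave 0 calls without WT 1, DeltaSP 1 or DeltaSP 2, 29 without WT 2 and 24 without either KO library. In these fits a genotype left with a lone library is assumed to vary like the others. The list's median log2 fold change in KO against WT was 2.44 without WT 1 and 1.73 without KO 2. In DeltaSP against WT it was 4.04 without WT 1, 3.47 without DeltaSP 1 and 4.02 without DeltaSP 2.

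The genes were mostly lower in KO than in DeltaSP. Both KO libraries were below both DeltaSP libraries for 34 of the 38 genes (21.1% of all tested genes) and above them for 1, Herc6 (20.8%). For the other 3 genes, Trim25, Ifit2 and Sp100, the KO and DeltaSP libraries overlapped. None of the 37 genes passed edgeR's adjusted threshold in KO against DeltaSP, where 0.00671% of all genes did. An unadjusted p under 0.05 in edgeR was reached by 33 of them, and by 813 of all 14900 tested genes. The DESeq2 Wald test called 8, all lower in KO, where it called 0.342% of all tested genes in either direction. The median log2 fold change over the 37 genes was -1.43.

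Clones of 1 genotype also stood apart. KO 2 was above KO 1 for 38 of 38 genes, and over the 27 genes that reached 5 CPM the median ratio of KO 2 to KO 1 was 2.11, from 1.02 for Tor3a to 3.93 for Usp18. DeltaSP 1 was above DeltaSP 2 for 34 of 38. For 31 genes the libraries ran in 1 order, with KO 2 above KO 1, both DeltaSP libraries above KO 2 and both WT libraries below KO 1. The genes are not replicates of each other, and each clone is a single library. The shares of all tested genes that ran in these orders were not taken, so nothing is read from these counts.

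**Figure D2:**
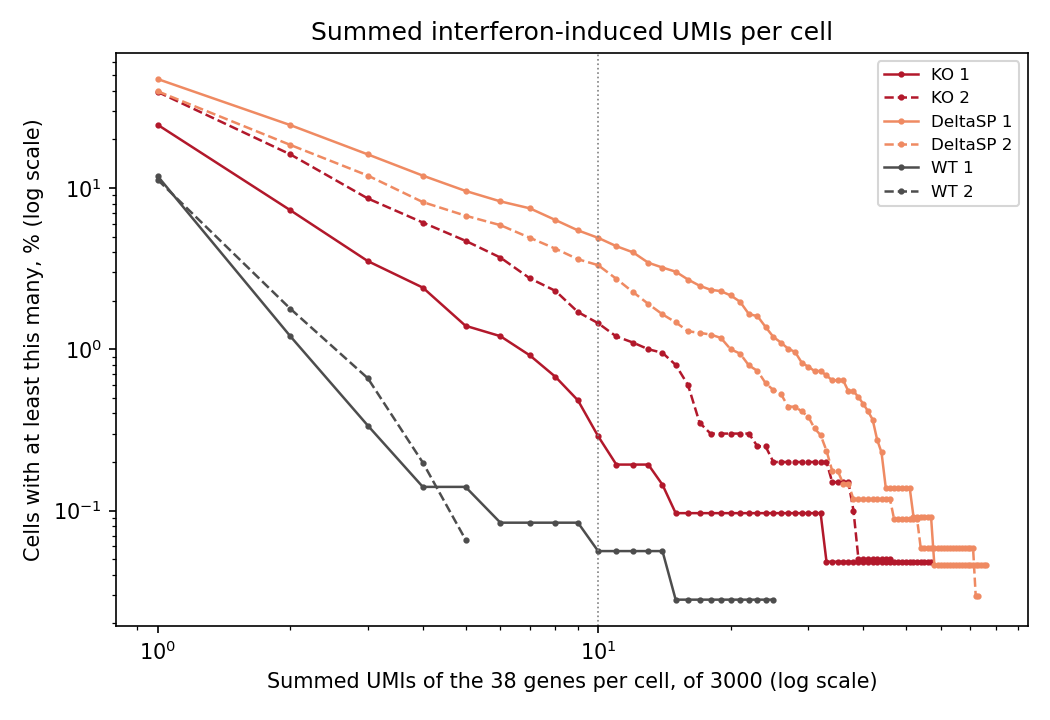
Share of cells (log scale, %) that held at least a given number of summed UMIs of the 38 genes (horizontal axis, log scale) after each cell was thinned to 3000 UMIs, 1 line per library, with the dotted line at 10. At 10 UMIs the DeltaSP libraries stood at 4.91% and 3.32% and KO 2 at 1.45%, while WT 1 ended at 25 UMIs and WT 2 at 5.

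Single cells showed how these levels were spread. Each cell was thinned to 3000 UMIs so that depths were equal, and cells below that depth were left out (936 in WT 1 and between 56 and 201 in the other libraries). At least 10 of the 3000 UMIs came from the 38 genes in 6 of 2073 cells of KO 1 (0.289%, 95% exact binomial interval 0.106 to 0.629) and in 29 of 1998 cells of KO 2 (1.45%, 0.974 to 2.08). The same held for 107 of 2180 cells of DeltaSP 1 (4.91%, 4.04 to 5.90) and 113 of 3401 cells of DeltaSP 2 (3.32%, 2.75 to 3.98). In WT 1 it was 2 of 3563 cells (0.0561%, 0.0068 to 0.203), and in WT 2 it was 0 of 1511 cells, which allows a share of up to 0.199% when 3 cells are taken as the limit of a count of 0, and of up to 0.244% by the exact interval. Such cells were thus most frequent in DeltaSP and rare in WT, and KO 2 exceeded KO 1 beyond counting error, which is the only error these intervals cover. A cell with at least 1 such UMI was more common: 24.7% and 39.4% of thinned cells in KO, 47.3% and 39.8% in DeltaSP, and 11.8% and 11.3% in WT, or, without thinning, 58.4% and 76.4% of cells in KO, 80.8% and 69.6% in DeltaSP, and 16.2% and 39.2% in WT. No cell type known to lack these genes was defined here, so the share that free RNA gives was not tested.

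Cells with at least 10 of these UMIs carried 14.1% and 26.0% of the list's thinned UMIs in KO, 52.2% and 44.6% in DeltaSP, and 7.5% and 0% in WT. The highest single cells held 57 and 46 UMIs of the 38 genes in KO, 76 and 73 in DeltaSP, and 25 and 5 in WT. No doublet caller was run. Leaving out the 5% of cells with the most UMIs gave shares of 0.305% and 1.53% in KO, 5.04% and 3.29% in DeltaSP, and 0.0599% and 0% in WT.

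**Figure D3:**
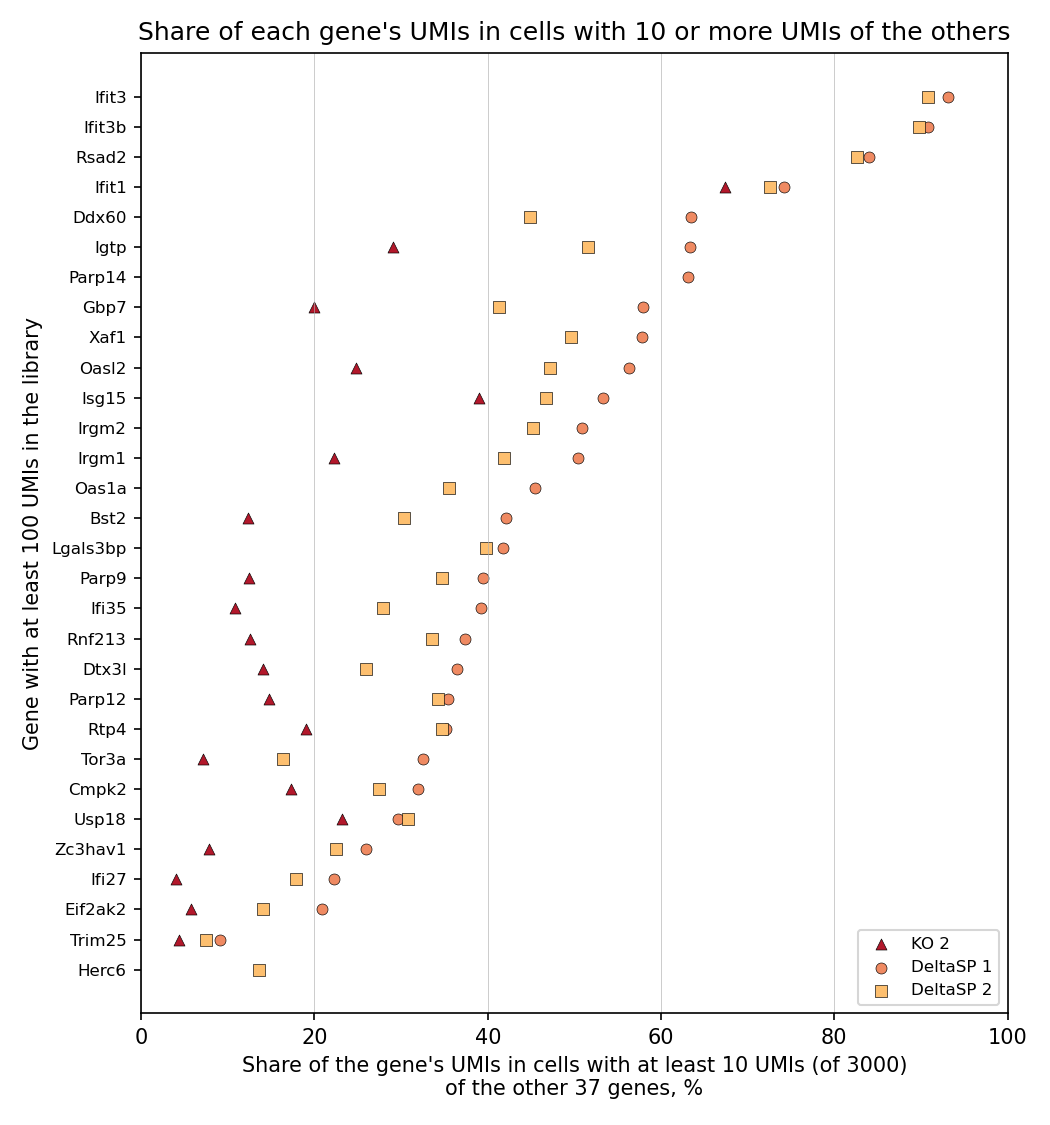
Share of each gene's UMIs (%) that lay in cells with at least 10 thinned UMIs of the other 37 genes, for genes with at least 100 UMIs in KO 2 (triangles), DeltaSP 1 (circles) and DeltaSP 2 (squares). Ifit3 is at the top with 93.1% and 90.8% in the DeltaSP libraries, and Trim25 is near the bottom with 9.09% and 7.46%.

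The genes differed in how far they were confined to those cells. For each gene with at least 100 UMIs in a library, cells were picked by the other 37 genes, and the share of the gene's own UMIs in them was taken. In DeltaSP 1 this share ran from 9.09% for Trim25 to 93.1% for Ifit3 over 29 genes, with a median of 42.1%, and in DeltaSP 2 from 7.46% to 90.8% for the same genes, with a median of 34.7%. In KO 2, where 20 genes had enough UMIs, it ran from 4.0% for Ifi27 to 67.4% for Ifit1, with a median of 14.4%. Rsad2, at 84.0% in DeltaSP 1, and Ifit1, at 74.2%, were also concentrated, whereas Eif2ak2, at 20.9%, Ifi27, at 22.3%, and Zc3hav1, at 26.0%, lay mostly in other cells. Bst2 and Isg15 were between, with Bst2 at 12.3% in KO 2 and 42.1% in DeltaSP 1 and Isg15 at 39.0% in KO 2 and 53.3% in DeltaSP 1.

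With those cells left out, the summed plain CPM (not TMM-scaled) of the 38 genes in the remaining cells was 136.0 and 262.7 in KO, 383.6 and 295.3 in DeltaSP, and 45.3 and 51.2 in WT. Both KO libraries stood above both WT libraries for 33 of 38 genes, where 49.2% of all tested genes did, and both DeltaSP libraries for 36 of 38, where 33.0% of all tested genes did. The plain scale itself was shifted: over all tested genes the median log2 ratio of mean CPM in these cells was 0.262 in KO over WT and 0.115 in DeltaSP over WT. Over the 37 of the 38 genes with UMIs there in both genotypes it was 2.36 in KO over WT and 3.02 in DeltaSP over WT. A low level in each of many cells and a high level in a few cells below the limit of 10 cannot be told apart at 3000 UMIs per cell.

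**Figure D4:**
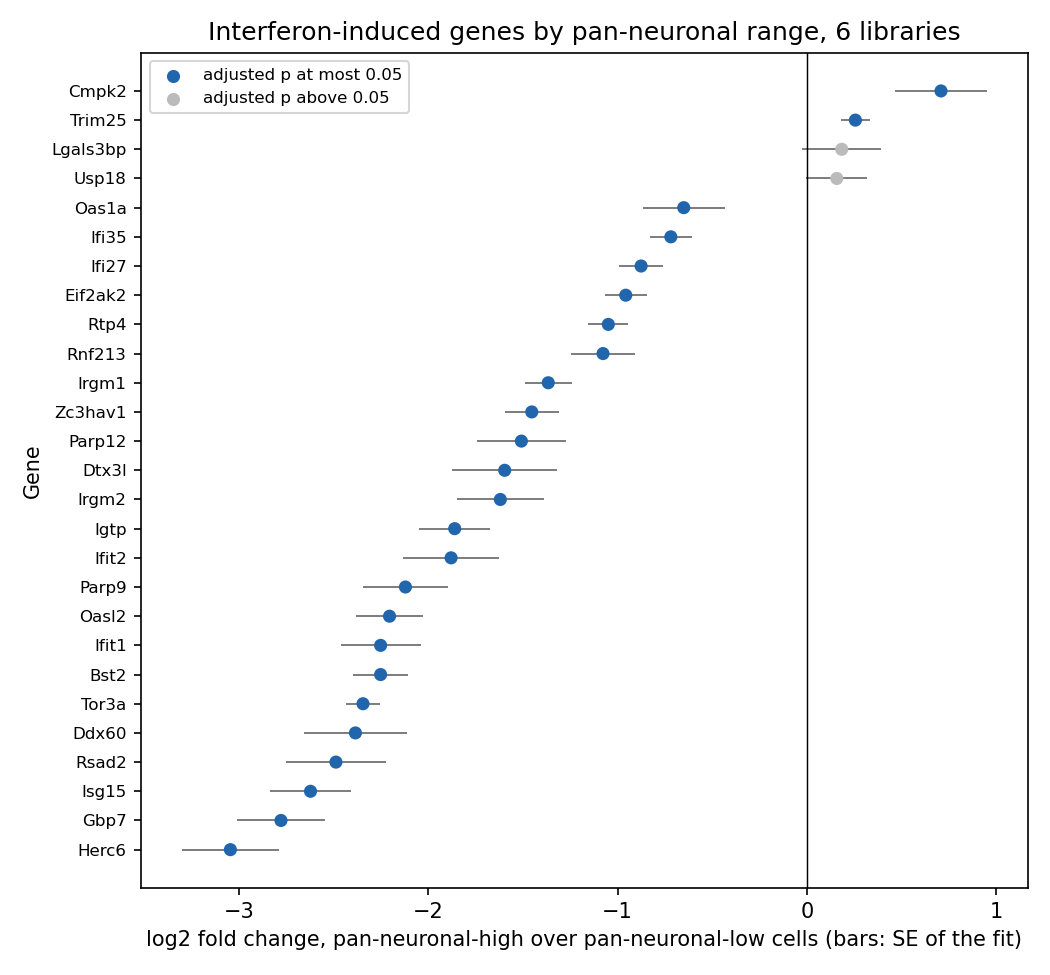
Log2 fold change of the 27 tested genes in pan-neuronal-high over pan-neuronal-low cells of the same library (points; bars give the SE of the fit over 6 libraries), blue where the adjusted p was at most 0.05. Herc6, at -3.04, is lowest, and Trim25, at 0.25, and Cmpk2, at 0.71, lie to the right of 0 with a passing test.

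Neuronal maturity was the next axis, a contrast within libraries that sets no genotypes against each other. Cells with at least 10 UMIs of the 15 pan-neuronal markers among 3000 were called pan-neuronal-high and the rest pan-neuronal-low; this is a range cut from a score, and between 6.86% and 15.8% of cells per library lay near the cut. The pan-neuronal-high share was 26.1% and 23.9% in KO, 35.7% and 26.5% in DeltaSP, and 46.3% and 42.4% in WT. The median number of progenitor marker UMIs was 1 in the high range of each library and 5 to 7 in the low range. Earlier results of these libraries had placed cells rich in interferon-induced RNAs among progenitor-like cells of DeltaSP, so the test below is not wholly independent of the choice of genes.

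Of the 27 genes tested, 23 were lower in pan-neuronal-high cells (edgeR with library as a block), where 42.9% of all 13091 tested genes were lower, and 2 were higher, where 40.1% were. The median log2 fold change was -1.60 for these genes and -0.0231 for all tested genes. The low-count filter let a gene into this test on its counts in 1 range alone. Herc6 entered in this way, with at most 0.500 CPM in the high range and at least 1.35 CPM in the low range of each library. The count and the median are thus given as a description. Bst2 was at 2.66 and 8.10 CPM in the high range and 26.6 and 51.1 CPM in the low range of KO, at 36.1 and 20.4 CPM against 122.2 and 89.6 CPM in DeltaSP, and at 2.35 and 1.87 CPM against 10.7 and 12.4 CPM in WT. It was thus lower in the high range of each of the 6 libraries, with a log2 fold change of -2.25 ± 0.15 (edgeR adjusted p = 4.29e-08). Tor3a was at 2.96 and 3.90 CPM against 20.1 and 19.4 CPM in KO, at 6.66 and 4.62 CPM against 28.2 and 24.4 CPM in DeltaSP, and at 2.74 and 3.01 CPM against 14.2 and 15.2 CPM in WT, with a log2 fold change of -2.34 ± 0.09 (edgeR adjusted p = 5.59e-10). Tor3a, with its small differences between genotypes, was thus lower in the high range of each of the 6 libraries too.

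Gbp7, with a log2 fold change of -2.78 ± 0.23, Isg15, at -2.62 ± 0.22, Rsad2, at -2.49 ± 0.26, Ifit1, at -2.25 ± 0.21, and Oasl2, at -2.20 ± 0.18, fell in 6 of 6 libraries each. Rtp4, at -1.05 ± 0.11, Eif2ak2, at -0.96 ± 0.11, and Ifi35, at -0.72 ± 0.11, fell less, also in 6 of 6 libraries. Cmpk2 rose by 0.71 ± 0.24 (edgeR adjusted p = 0.0186) and was higher in the high range of 6 of 6 libraries. The rise was largest in WT, at 4.44 and 7.32 CPM against 1.11 and 1.59 CPM. It was smaller in KO, at 2.76 and 5.50 against 2.64 and 3.42 CPM, and in DeltaSP, at 8.64 and 6.37 against 7.21 and 5.20 CPM. The difference from WT did not pass in edgeR for KO (-1.71 on the log2 scale, adjusted p = 0.218) or DeltaSP (-1.86, adjusted p = 0.213). Trim25 rose by 0.25 ± 0.08 (edgeR adjusted p = 0.00983), being higher in the 4 edited libraries and lower in both WT libraries; without DeltaSP 2 its adjusted p was 0.0521 and with WT and KO alone 0.222. Usp18, at 0.16 ± 0.16, and Lgals3bp, at 0.18 ± 0.21, did not pass, and Oas1a, which fell by 0.65 ± 0.22, had an adjusted p of 0.0521 in edgeR without KO 2. With the WT and KO libraries alone, 20 of the genes were tested, 16 were called lower and 1 higher. In that setting 76.3% of all 12821 tested genes were called in either direction, so little is read from this count. The other 11 genes were too low in this split to be tested, among them Ifit3, Ifit3b and Xaf1.

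Genotypes were also set side by side within each range. In pan-neuronal-low cells the summed level of the 38 genes was 182.1 and 339.6 CPM in KO, 803.7 and 549.7 CPM in DeltaSP, and 81.4 and 77.0 CPM in WT. In pan-neuronal-high cells it was 58.2 and 139.8 CPM in KO, 347.3 and 250.7 CPM in DeltaSP, and 28.5 and 28.9 CPM in WT. Both KO libraries were above both WT libraries for 35 of 38 genes in the low range (29.9% of all tested genes) and 21 of 38 in the high range (26.8%). Both DeltaSP libraries were above both WT libraries for 37 of 38 in the low range (22.7%) and 33 of 38 in the high range (22.8%). The step between ranges was also compared between genotypes, as a fit chosen after seeing the data: none of 27 genes passed in edgeR for KO against WT (0.0229% of all genes), DeltaSP against WT (0.00764%) or KO against DeltaSP (0%), and an unadjusted p under 0.05 was reached by 3 genes for KO against WT, 11 for DeltaSP against WT and 8 for KO against DeltaSP. No other tool was run for it. The share of all genes with an unadjusted p under 0.05 was not taken, so nothing is read from those counts. A log2 difference as large as 4.51, for Oas1a in DeltaSP against WT, did not pass (edgeR adjusted p = 0.698). Equal steps are therefore not shown. Among cells with at least 10 of the list's UMIs, 0 of 6 in KO 1, 2 of 29 in KO 2 (6.9%), 14 of 107 in DeltaSP 1 (13.1%, 95% exact interval 7.34 to 21.0) and 9 of 113 in DeltaSP 2 (7.96%, 3.71 to 14.6) were pan-neuronal-high, against 26.2%, 24.1%, 36.9% and 27.2% of the other cells of KO 1, KO 2, DeltaSP 1 and DeltaSP 2.

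Chromosome 11 held 9 of the 38 genes: Trim25, Irgm1, Irgm2, Igtp, Ifi47, Rnf213, Xaf1, Ifi35 and Lgals3bp. The whole chromosome was shifted in the edited libraries. The median log2 fold change of its 1203 tested genes was 0.368 in KO and 0.371 in DeltaSP, both against WT, where the medians of the other chromosomes ran from -0.119 to 0.0104 in KO and from -0.122 to 0.0044 in DeltaSP. The medians of the 9 genes were 2.20 in KO and 3.98 in DeltaSP, and the 28 tested genes on other chromosomes had medians of 2.15 in KO and 3.74 in DeltaSP.

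**Figure D5:**
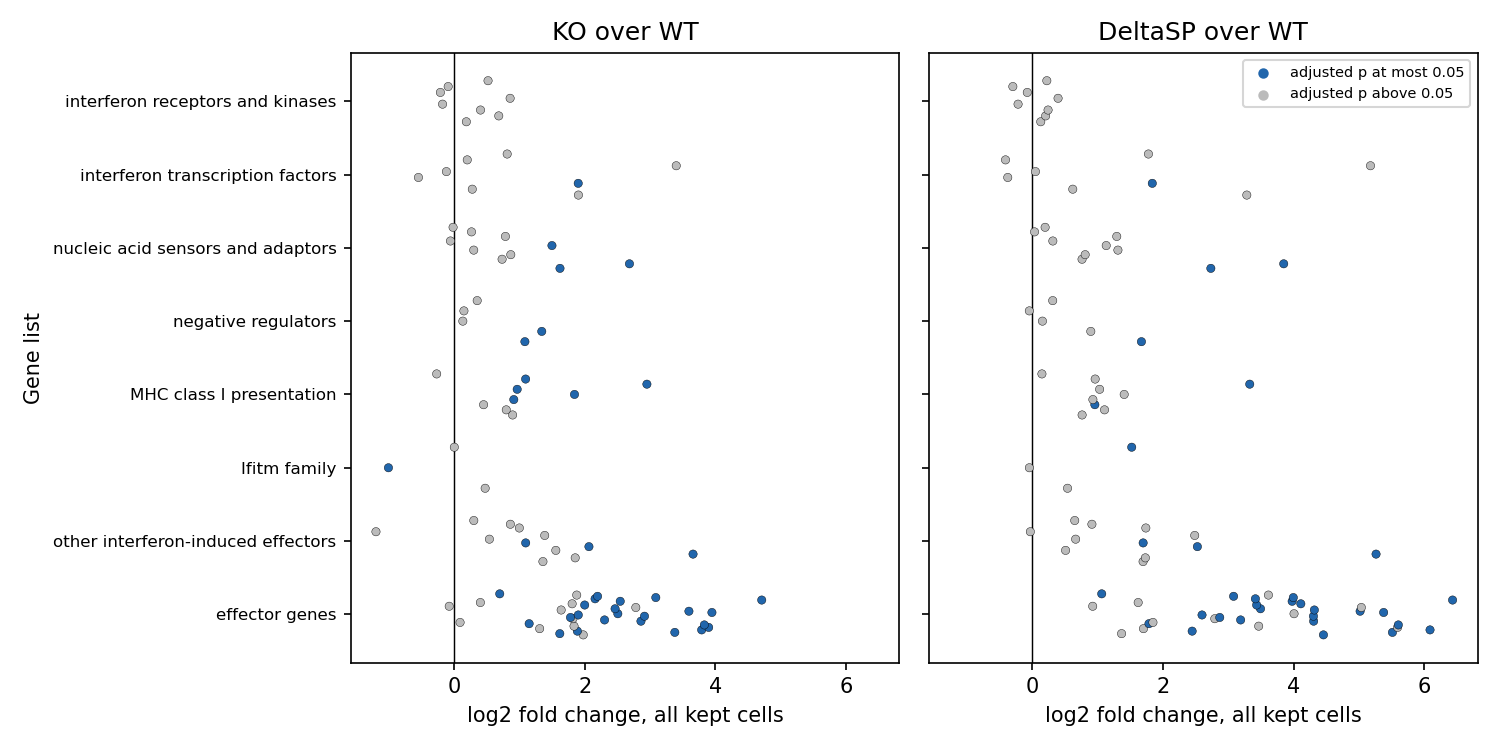
Log2 fold change of single genes in KO over WT (left) and DeltaSP over WT (right) for 7 lists of the interferon pathway and the effector genes, over all kept cells; blue points had an adjusted p of at most 0.05. Receptors and kinases ran from -0.209 to 0.858 in KO and from -0.296 to 0.396 in DeltaSP. Genes with 3 or fewer UMIs in the WT libraries together, 3 of the effector genes among them, are not drawn.

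The rest of the pathway was read from lists that were likewise drawn up with earlier results known. The interferon genes themselves were barely seen: of 10 ligand genes, none could be tested. Ifna4 had 9 and 6 UMIs in KO, 8 and 8 in DeltaSP, and 0 and 0 in WT, and Ifnb1 had 4 and 1 UMIs in DeltaSP and none in the other 4 libraries. Ifna4 came from 2 cells in each KO library and 5 cells in each DeltaSP library, and 6 of 6 of its UMIs in KO 2 lay in cells with at least 10 UMIs of the effector genes, as did 0 of 9 in KO 1, 5 of 8 in DeltaSP 1 and 2 of 8 in DeltaSP 2. Of the 8 receptors and kinases tested, 0 passed in either comparison in edgeR. An unadjusted p under 0.05 in edgeR was reached by 3 in KO and 0 in DeltaSP. Such a p was reached by 4434 of all 14900 tested genes in KO and by 2553 in DeltaSP. The DESeq2 Wald test called 2 of the 8 in KO, Ifnar2 and Il10rb, and 0 in DeltaSP. It called 2382 of all 14900 tested genes in KO and 604 in DeltaSP. Little is therefore read from the counts of 3 and 2 in KO. Ifngr2, a subunit of the interferon gamma receptor, was at 31.2 and 33.3 CPM in KO, 33.0 and 29.7 CPM in DeltaSP, and 28.9 and 43.7 CPM in WT, with overlapping genotypes. Jak1 was at 25.4 and 26.5 CPM in KO, 28.5 and 28.5 CPM in DeltaSP, and 29.3 and 30.6 CPM in WT, and Ifnar1 was at 24.1 and 24.8 CPM in KO, 25.5 and 21.6 CPM in DeltaSP, and 20.5 and 22.4 CPM in WT.

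Of 8 transcription factors tested, 1 rose in both edited genotypes, where 2.81% of all tested genes were called higher in KO and 0.289% in DeltaSP. This was Irf1, a transcription factor that activates many interferon-induced genes, at 10.1 and 10.2 CPM in KO, 8.75 and 10.6 CPM in DeltaSP, and 2.04 and 3.30 CPM in WT (log2 fold change 1.90 ± 0.26 in KO and 1.84 ± 0.26 in DeltaSP). KO and DeltaSP overlapped for Irf1, unlike most of the effector genes.

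Of 10 sensors and adaptors tested, 3 rose in KO and 2 in DeltaSP. For these and the next lists, the shares of all tested genes called higher were 2.81% in KO and 0.289% in DeltaSP. Ddx58 was at 3.05 and 5.20 CPM in KO, 9.90 and 7.99 CPM in DeltaSP, and 1.47 and 1.23 CPM in WT, and Ifih1, the other cytoplasmic RNA receptor, was also called in both. The adaptor Ticam1 was called in KO. Of 5 negative regulators tested, Socs1, an inhibitor of Jak kinases, rose in both (log2 fold change 1.08 ± 0.23 in KO and 1.67 ± 0.23 in DeltaSP), and Socs3 rose in KO. Of 9 class I antigen presentation genes tested, 5 were called higher in KO: Tap1, Tap2, Tapbp, Psmb8 and Psmb9. In DeltaSP 2 were called higher, Psmb8 and B2m. The unlike counts do not show a larger rise in KO. The median log2 fold change of the 9 genes against WT was 0.914 in KO and 0.964 in DeltaSP. Both libraries were above both WT libraries for 8 genes in KO (30.1% of all tested genes) and 8 in DeltaSP (24.9%). Psmb8, an immunoproteasome subunit, was at 7.03 and 7.22 CPM in KO, 7.44 and 11.1 CPM in DeltaSP, and 0.963 and 0.882 CPM in WT.

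Of the 3 Ifitm genes tested, which code for membrane proteins that block viral entry, Ifitm3 rose in DeltaSP (304.8 and 298.2 CPM, against 95.4 and 114.3 CPM in WT), and Ifitm2 fell in KO (113.2 and 71.4 CPM, against 201.0 and 169.1 CPM in WT), where 4.71% of all tested genes were called lower. Of 16 further effectors tested, Gbp3, Trim21 and Nmi rose in both genotypes. The 7 lists together gave 15 calls in KO and 10 in DeltaSP, of 59 genes tested. Of all 14900 tested genes, 7.52% were called in KO and 0.356% in DeltaSP, in either direction. The KO calls numbered 0 without WT 1 or KO 2, 3 without KO 1, 20 without WT 2, and 5 and 6 without DeltaSP 1 and DeltaSP 2. The DeltaSP calls numbered 0 without WT 1, DeltaSP 1 or DeltaSP 2, 16 without WT 2 and 9 without either KO library.

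Blood cells also express many of these genes, and their markers were low. The 8 T lymphocyte markers summed to 2.52 and 3.86 CPM in KO, 3.20 and 3.06 CPM in DeltaSP, and 3.40 and 2.88 CPM in WT, with 2 to 5 of the markers at 0 in a library. Lck made up most of each sum, at 2.40 and 3.67 CPM in KO, 3.10 and 2.99 CPM in DeltaSP, and 2.72 and 2.65 CPM in WT. The 11 macrophage and microglia markers summed to 1.90 and 1.31 CPM in KO, 1.71 and 1.96 CPM in DeltaSP, and 6.0 and 2.42 CPM in WT, with 1 to 6 at 0. In WT 1, Tyrobp of this list had 23 UMIs and Ptprc of the T lymphocyte list had 10. In each of the other libraries Tyrobp had 0 UMIs and Ptprc at most 2. Among the cells with at least 10 thinned UMIs of the effector genes, a UMI of any of these markers was found in 0 of 6 cells of KO 1, 1 of 29 of KO 2, 14 of 107 of DeltaSP 1 (13.1%) and 9 of 113 of DeltaSP 2 (7.96%). Among the other cells such a UMI was found in 6.24% and 8.43% in KO, 7.62% and 6.08% in DeltaSP, and 2.33% and 8.07% in WT. In the cells rich in effector UMIs these were UMIs of Lck, a kinase of T lymphocytes (0 and 1 in KO, 14 and 6 in DeltaSP), and of Cd68, a lysosomal protein of macrophages (2 and 3 in DeltaSP), while the other markers, Ptprc, Csf1r and Tyrobp among them, had 0 UMIs there. An Lck UMI was found in 11.2% and 5.31% of the rich cells in DeltaSP, against 4.68% and 3.80% of the other cells. In KO these shares were 0% and 3.45%, against 3.53% and 6.09%. The part of such cells in the results was not tested. Mesoderm markers summed to 45.0 and 24.1 CPM in KO, 54.7 and 49.1 CPM in DeltaSP, and 28.1 and 48.1 CPM in WT, and their part was not tested either.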

How the data were processed

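The authors deposited 1 matrix of UMI counts for each of the 6 libraries, with no normalization; the alignment to mm10 and the counting against Ensembl 93 were done in Cell Ranger 4.0 per the labels. The files held 24215 barcodes and 201615681 UMIs. Barcodes under 1000 genes or over 10% mitochondrial UMIs were dropped, which left 16225 cells. Counts were summed per library and compared with the quasi-likelihood test of edgeR 4.0.16 under R 4.3.3, in 1 fit of the 6 libraries. Low genes were removed by filterByExpr, libraries scaled by TMM, and p-values adjusted by Benjamini-Hochberg over all genes tested (threshold 0.05). The comparison of pan-neuronal ranges used sums per library and range, with library as a block. For shares of cells, each cell was thinned at random to 3000 UMIs. DESeq2 1.42.0 and other filters, cuts and left-out libraries were alternatives. The test was checked on simulated data. For DeltaSP against WT it recovered 48% of 2-fold and 89% of 4-fold changes, with 6 false calls among 14900 genes. Many 2-fold differences between genotypes would thus not pass. Between pan-neuronal ranges it recovered 99% of 2-fold and 100% of 4-fold changes, with 19 false calls. For the difference of the ranges between DeltaSP and WT it recovered 84% and 94%, with 8 false calls.

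The genes, the pathway lists and the tests were chosen with earlier results of these data known. Any of the 38 genes may be named; those reaching 5 CPM in at least 1 library are given by library and the others by range. Of other lists, genes called in a genotype comparison are named, or else the 3 with the highest mean CPM; Ifnar2 and Il10rb were named, and Herc6 and Zbp1 given by library, after their values were seen. Genes sharing 90-base windows of their last 600 transcript bases with another gene were marked as uncertain. Coordinates are those of RefSeq on GRCm38.p6, the assembly behind mm10.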

Additional observations from a re-analysis of the deposited data

Results flagged for a closer look

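For 3 of the genes, each library of 1 genotype moved the opposite way from each library of another between pan-neuronal-high and pan-neuronal-low cells. The CPM of Trim25, high minus low, was 4.22 and 4.89 in KO and 7.97 and 11 in DeltaSP, against -1.39 and -0.124 in WT. The test of the difference did not pass in edgeR for KO against WT (0.40 on the log2 scale, adjusted p = 0.459) or for DeltaSP against WT (0.51, adjusted p = 0.698). Usp18 differed by 6.70 and 9.55 CPM in DeltaSP, against -0.854 and -0.871 CPM in WT, and this difference did not pass either (2.12 on the log2 scale, edgeR adjusted p = 0.654). For Lgals3bp the values were 0.0578 and 1.77 CPM in KO, -0.155 and -0.625 CPM in DeltaSP, and 0.261 and 0.128 CPM in WT. Neither KO against DeltaSP (0.80 on the log2 scale, edgeR adjusted p = 0.951) nor DeltaSP against WT (-0.69, edgeR adjusted p = 0.891) passed. Usp18, Trim25 and Lgals3bp thus showed opposite signs in these libraries with no passing test.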

How the results depend on the processing

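The number of genes called in KO against WT, 25 in the report, ran from 17 to 33 over the 8 alternatives that kept all of the compared libraries and from 0 to 17 when 1 library was left out. In DeltaSP against WT, where it was also 25, it ran from 18 to 36 over the same alternatives other than the replicate block and from 0 to 29 when 1 library was left out. A replicate block gave 17 calls in KO against WT, 10 in DeltaSP against WT and 0 in KO against DeltaSP; deviations of same-numbered libraries correlated over genes at 0.216 for KO with WT, at -0.105 for DeltaSP with WT and at 0.0376 for KO with DeltaSP, so they went together weakly in KO and WT alone, and the numbers were not taken to pair the libraries. KO against DeltaSP had 0 calls, but 26 with no low-count filter and 8 in the DESeq2 Wald test, and 0 whichever library was left out. Over all genes, the calls of KO against WT (1121) numbered 3390 with no filter and 2382 in the Wald test, and those of DeltaSP against WT (53) 1326 with no filter, 604 in the Wald test, 22 with the block and 34 with sums thinned to the smallest library. KO against DeltaSP had 1 call, 422 with no filter, 51 in the Wald test and 4 with only the genotypes compared. Without 1 library, calls ran from 4 to 3207 in KO against WT and from 1 to 1106 in DeltaSP against WT. For the 7 pathway lists, 15 calls in KO became 29 with no filter, 26 in the Wald test and 5 with only the genotypes compared, and 10 in DeltaSP became 33 with no filter, 22 in the Wald test, 2 with the block and 6 with thinned sums. Calls between pan-neuronal ranges, 25 in the report, where 83.0% of all tested genes were called, ran from 17 to 35, and from 21 to 27 when 1 library was left out. The log2 fold change of Cmpk2 in KO against WT ran from -0.389 to 0.328 when 1 library was left out, its sign turning without WT 2 (0.328) and without KO 1 (0.197). The sign also turned between ranges for Usp18 in the Wald test (-0.225) and with WT and KO alone (-0.361) and for Lgals3bp at a cut of 5 (-0.065); none of these passed the test. The share of cells rich in these UMIs followed the cut: at 5 UMIs it was 1.40% and 4.70% in KO and 9.59% and 6.73% in DeltaSP, and at 20 UMIs 0.0965% and 0.300% in KO and 2.16% and 1.0% in DeltaSP. Thinning to 2000 UMIs gave 0.0948% and 0.634% in KO and 3.12% and 1.83% in DeltaSP, and thinning to 5000 UMIs 1.02% and 3.03% in KO, 7.62% and 5.45% in DeltaSP and 0.211% in WT 1. Without Bst2 and Trim25 it was 3.76% and 2.50% in DeltaSP. The causes of these shifts were not tested. The low depth of WT 1 limits what can be said of genes near 0 in WT.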
